A study of Mus musculus with 16 samples.

Results

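Dusp10 and 7 other genes of phosphatases that act on MAP kinases (Dusp1, Dusp3, Dusp4, Dusp6, Dusp7, Dusp8 and Dusp16) were described in gastrocnemius, a muscle of the calf, by their probes on two-color arrays. They were picked by the gene names in the array files, from 27745 genes on 41174 probes, and they were picked with the difference between the diets known, so that difference is given below as a description and without p-values. The 8 genes had 10 probes, and 8 probes, 1 per gene, were bright enough to be used. The second probes of Dusp4 and Dusp16 were too weak in the reference channel.

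All 16 animals were male C57BL/6N mice, 3 months old at the start, fed for 8 weeks a high-fat diet based on corn oil (cHF) and rosiglitazone, a drug that activates PPARγ, at a dose of 10 mg per kg diet. The 8 cHF+ROSI mice had this diet alone, and for the 8 cHF+F+ROSI mice an oil concentrate of long-chain n-3 fatty acids (46% DHA and 14% EPA) took the place of 15% of the lipids. Every animal was fasted for 10 h in the light phase, offered Chow overnight and killed the next morning, so the values describe re-fed muscle. RNA of each mouse was labelled with Cy5 and compared on 1 array with a common Cy3-labelled reference pool, which per the labels also held animals given a higher dose of rosiglitazone, and values are log2 ratios of mouse to pool.

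Dual specificity phosphatases of this family remove phosphate from both the threonine and the tyrosine of the activation loop of MAP kinases, and so switch ERK, JNK and p38 off. Members differ in where they sit in the cell and in which kinase they prefer: Dusp10 (MKP-5), Dusp8 and Dusp16 (MKP-7) act mainly on JNK and p38, Dusp6 (MKP-3) and Dusp7 are cytoplasmic phosphatases of ERK, and Dusp1 (MKP-1) and Dusp4 (MKP-2) are nuclear and are induced by growth factors and stress. Dusp3 (VHR) is a small phosphatase without the kinase-binding domain of the others, and loss of Dusp10 in mice is known for its effect on muscle regeneration.

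For 7 of the 8 genes a promoter of 300 bases, from 250 before to 50 after the RefSeq gene start, was at hand (GRCm38.p6), and those of Dusp10, Dusp1 and Dusp8 are printed because Dusp10 had the largest difference of the 8 between the diets and Dusp1 and Dusp8 hold a full cAMP response element. Dusp4 had no entry. Capitals mark the cAMP response element TGACGTCA and the GC box GGGCGG, searched on both strands, and none of these matches overlap in the sequences shown.
Dusp10, chr1:184034131-184034430, plus strand: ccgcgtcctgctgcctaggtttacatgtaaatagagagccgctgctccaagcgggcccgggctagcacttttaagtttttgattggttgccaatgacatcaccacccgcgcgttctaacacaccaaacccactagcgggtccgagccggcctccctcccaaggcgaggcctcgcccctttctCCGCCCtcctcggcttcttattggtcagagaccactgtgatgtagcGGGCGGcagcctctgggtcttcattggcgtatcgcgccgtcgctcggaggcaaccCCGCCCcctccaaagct
Dusp1, chr17:26508423-26508722, minus strand: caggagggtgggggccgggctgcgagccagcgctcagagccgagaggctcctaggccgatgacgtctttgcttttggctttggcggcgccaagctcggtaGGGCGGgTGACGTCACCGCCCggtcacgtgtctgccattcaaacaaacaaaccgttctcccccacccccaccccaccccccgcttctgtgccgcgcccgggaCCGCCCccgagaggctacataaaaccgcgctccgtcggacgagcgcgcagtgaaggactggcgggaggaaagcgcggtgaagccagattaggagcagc
Dusp8, chr7:142095235-142095534, minus strand: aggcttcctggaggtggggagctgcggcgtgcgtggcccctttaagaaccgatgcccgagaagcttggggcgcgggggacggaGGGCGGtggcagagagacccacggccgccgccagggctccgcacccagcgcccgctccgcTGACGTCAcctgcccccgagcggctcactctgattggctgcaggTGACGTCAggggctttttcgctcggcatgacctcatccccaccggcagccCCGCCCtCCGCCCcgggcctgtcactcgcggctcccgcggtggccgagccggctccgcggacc
The cAMP response element was present once in the Dusp1 promoter and in 2 copies in that of Dusp8, and 1.79% of all 32851 promoters of this length hold it. The GC box was found in 6 of the 7 promoters, all but that of Dusp6, and in 35.7% of all promoters. The letters of the AP-1 site TGANTCA (7.81% of all promoters), the TATA box TATAAA (13.6%), the E box CAGCTG (16.3%) and the CArG box (1.63%) were in none of the 7 windows. A MEF2 site, present in 3.19% of all promoters, was found in that of Dusp16. A match is a run of letters and was not shown to be a site.

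The arrays lay on 4 slides, each with 2 mice of either group, the cHF+ROSI mice always at positions 1 and 3, so position and diet cannot be told apart. The median Cy5 signal of an array was 2.33 to 3.64 times background in cHF+ROSI mice and 2.98 to 3.46 times in cHF+F+ROSI mice, and Cy3 stayed between 1.78 and 2.02, which limits the ratios of weak genes. All 11 genes set as markers of skeletal muscle and its fast fibres were measured. One animal stood apart in its group, cHF+F+ROSI replicate 2. Its slow myosin heavy chain gene Myh7 was at -4.06, against -0.96 to 0.67 in the other 7 mice of its group. Its mean of 15 immediate early genes was at 0.99, against at most 0.030 in those 7 mice, but cHF+ROSI replicate 2 reached 0.86. Relations to Dusp10 are therefore also given without cHF+F+ROSI replicate 2. Animals shared cages, per the study's methods, and which of them did so was not used here, so errors and p-values measure the spread between these mice taken as independent.

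Dusp10 was lower in the cHF+F+ROSI mice. The log2 ratio in cHF+ROSI mice had a lowest value of 0.036, a median of 0.59 and a highest value of 0.86, and in cHF+F+ROSI mice these were -0.74, -0.27 and 0.80. Only replicate 2 of the cHF+F+ROSI group reached the range of the other group, and the second highest mouse of its group, at -0.016, lay below all 8 cHF+ROSI mice. The means were 0.50 ± 0.31 (SD, n = 8) and -0.23 ± 0.48 (SD, n = 8), a log2 fold change of -0.73 with an SE of 0.18, or 1.65-fold lower. Among 19398 probes it ranked 24 by how far it was lower. Without replicate 2 the log2 fold change was -0.87.

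The difference in Dusp10 had the same sign on each slide. It was -0.69 on slide 1, -0.62 on slide 2, -0.46 on slide 3 and -1.12 on slide 4, each from 2 mice of either group. The mice and the reference were also read apart: in the Cy5 signal alone the difference was -0.76, and in the Cy3 signal of the pool it was -0.00082. The Dusp10 probe, on chromosome 1 from 185775985 to 185776044 on the plus strand (mm8), was on average 75.9 times background in Cy5 and 15.4 times in Cy3.

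**Figure D1:**
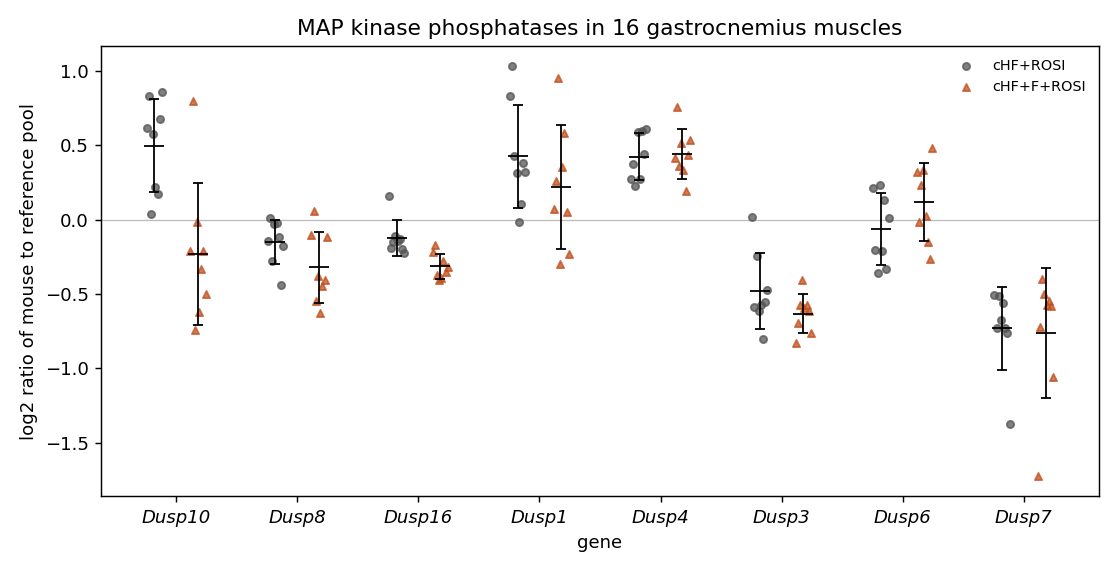
Log2 ratio of mouse to reference pool (vertical axis) for the 8 genes (horizontal axis) in cHF+ROSI mice (grey circles) and cHF+F+ROSI mice (orange triangles), 1 point per mouse, with the group mean (dash) and SD (bar). In Dusp10, 7 of the 8 cHF+F+ROSI mice lie below the lowest cHF+ROSI mouse, and the groups of the other 7 genes overlap.

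Of the other phosphatases of JNK and p38, Dusp16 differed by less than Dusp10 but with a narrow spread. It lay between -0.22 and 0.16 with a median of -0.15 in cHF+ROSI mice, and between -0.41 and -0.17 with a median of -0.33 in cHF+F+ROSI mice. All 8 cHF+F+ROSI mice were below the cHF+ROSI mean and the ranges overlapped, with replicates 1 and 2 of the cHF+F+ROSI mice inside the range of the other group. The log2 fold change was -0.19 (SE 0.055), and it was negative on all 4 slides, from -0.27 to -0.058. Without cHF+ROSI replicate 1, the highest mouse, it was -0.15.

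Dusp8, the other JNK and p38 phosphatase, ranged from -0.44 to 0.0078 (median -0.13) in cHF+ROSI mice and from -0.63 to 0.058 (median -0.39) in cHF+F+ROSI mice, so the groups overlapped. Its log2 fold change of -0.17 (SE 0.094) was negative on slides 1 to 3 and 0.20 on slide 4. In Cy3, the channel of the common pool, the Dusp8 probe also differed by -0.15 between the arrays of the groups, against -0.35 in Cy5. With array quality weights the log2 fold change of Dusp8 was -0.29.

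The nuclear, inducible phosphatases had log2 fold changes of unlike sign, that of Dusp4 was smaller than its SE, and the 2 genes were not tested against each other. Dusp1, a classical immediate early gene, ranged from -0.016 to 1.03 (median 0.35) in cHF+ROSI mice and from -0.30 to 0.95 (median 0.17) in cHF+F+ROSI mice, a log2 fold change of -0.21 (SE 0.17). It was -0.12 without cHF+ROSI replicate 2, -0.13 without cHF+F+ROSI replicate 4, -0.31 without cHF+F+ROSI replicate 3 and -0.084 with array quality weights. On slide 1 all 4 mice were spread from 0.26 to 1.03, and slide 3 alone gave a positive difference, of 0.27. Dusp4 ranged from 0.23 to 0.61 (median 0.41) and from 0.19 to 0.76 (median 0.42), a log2 fold change of 0.017 (SE 0.078), with 4 mice of the second group on either side of the first group's mean.

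The ERK phosphatases of the cytoplasm, Dusp6 and Dusp7, had log2 fold changes of unlike sign, and that of Dusp7 was smaller than its SE. Dusp6, which ERK signalling itself induces, ranged from -0.36 to 0.23 (median -0.098) in cHF+ROSI mice and from -0.27 to 0.48 (median 0.13) in cHF+F+ROSI mice. Its log2 fold change was 0.19 (SE 0.12), with 6 of 8 cHF+F+ROSI mice above the other group's mean, and on slide 3 it was -0.17. Dusp7 ranged from -1.37 to -0.51 (median -0.70) and from -1.72 to -0.40 (median -0.58), a log2 fold change of -0.032 (SE 0.16). Here too 6 of 8 cHF+F+ROSI mice lay above the other group's mean. The difference in Dusp7 was 0.055, 0.056 and 0.082 on slides 1 to 3 and -0.32 on slide 4. Without cHF+F+ROSI replicate 1 its log2 fold change was 0.10.

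Dusp7 varied with the slide. The 4 mice of slide 4, both groups included, held its 4 lowest values, -1.72 to -0.76, and the 12 mice of the other slides lay between -0.73 and -0.40. The Cy5 signal of Dusp7 differed by -0.86 (log2) between slide 4 and the others, and the Cy3 signal of the pool by -0.21. For Dusp10 the same comparison gave 0.055 in Cy5 and -0.052 in Cy3.

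**Figure D2:**
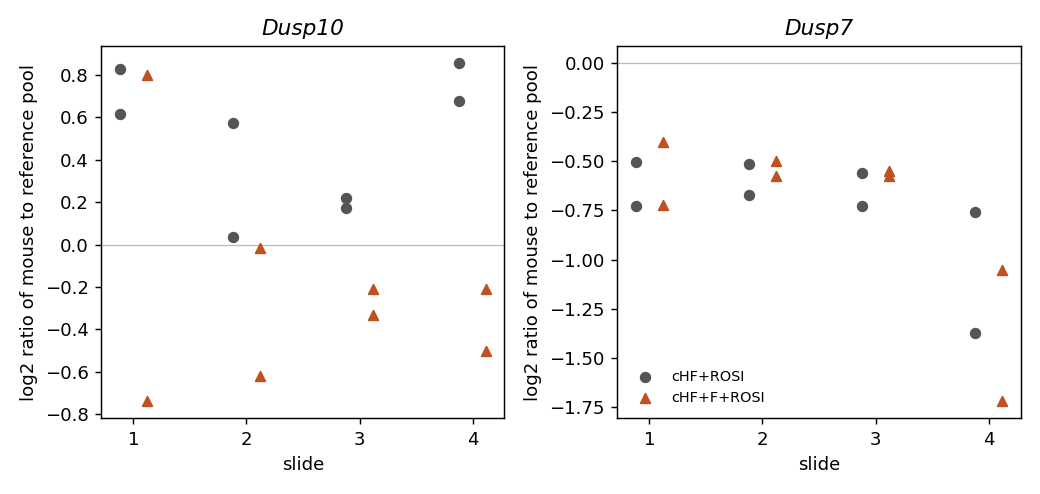
Log2 ratio of mouse to reference pool (vertical axis) of Dusp10 (left) and Dusp7 (right) by slide (horizontal axis), 1 point per mouse, with cHF+ROSI mice as grey circles and cHF+F+ROSI mice as orange triangles. Dusp10 is lower in cHF+F+ROSI mice on average on each slide, with replicate 2 high on slide 1, and Dusp7 is low in all 4 mice of slide 4.

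Dusp3, the small phosphatase, ranged from -0.80 to 0.017 (median -0.56) in cHF+ROSI mice and from -0.83 to -0.41 (median -0.61) in cHF+F+ROSI mice. The log2 fold change was -0.15 (SE 0.094), and 7 of 8 cHF+F+ROSI mice lay below the other group's mean. Without cHF+ROSI replicate 1 it was -0.082, and with array quality weights -0.077.

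Of the 8 genes, 6 were lower and 2 higher in the cHF+F+ROSI mice, with a median log2 fold change of -0.16. The median size of the difference, without its sign, was 0.178 for the 8 genes and 0.0605 for all probes tested. With an unadjusted limma p of up to 0.05 2 of the 8 were past the threshold, Dusp10 and Dusp16, against 10.4% of all probes, and at an adjusted p of up to 0.05 none was, against 0.0773% of all probes. Since the genes were listed with this contrast known, nothing is read from these counts.

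**Figure D3:**
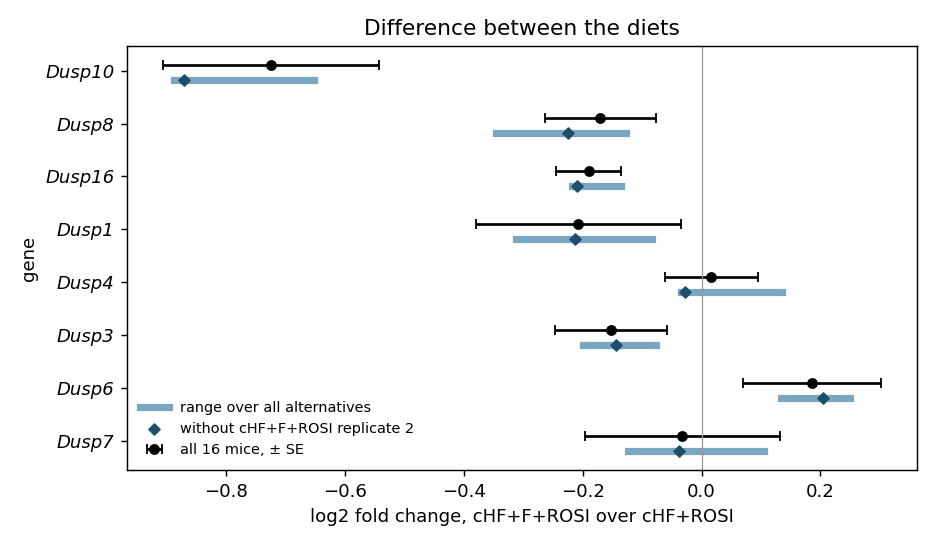
Log2 fold change of cHF+F+ROSI over cHF+ROSI mice (horizontal axis) for the 8 genes (vertical axis), with all 16 mice (black points, bars are SE), without cHF+F+ROSI replicate 2 (diamonds) and over all alternatives including each mouse left out (blue bars). Dusp10 lies between -0.89 and -0.65 under every alternative drawn, while the bars of Dusp4 and Dusp7 cross 0.

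Of the markers of other cells, those of endothelium differed between the diets before adjustment, and in a piece of whole muscle fewer cells of a type and less RNA per cell cannot be told apart. Of 8 endothelial genes 7 had lower ratios in cHF+F+ROSI mice with an unadjusted limma p of up to 0.05, against 4.98% of all probes. They were Pecam1, Cdh5, Kdr, Tek, Cldn5, Eng and Emcn, none of them called after adjustment, with log2 fold changes down to -0.42 for Cldn5. The mean of the 8 genes ranged from -0.26 to -0.053 in cHF+ROSI mice and from -0.51 to -0.21 in cHF+F+ROSI mice. Across mice this mean had an r of -0.19 with Dusp10 once group means were subtracted, and its part in the difference of Dusp10 was not tested. None of 9 slow fibre, 7 macrophage, 6 fibroblast, 6 adipocyte, 4 red blood cell and 4 nerve sheath genes passed the unadjusted threshold, which 10.4% of all probes passed. Of the 11 genes of skeletal muscle and fast fibres 1 passed it, Mylpf, a myosin light chain, higher by 0.18 with an adjusted p in limma of 0.478.

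Whether Dusp10 moved with the other phosphatases from mouse to mouse was examined after each group's mean had been subtracted, so that the difference between the diets did not enter. Dusp4 followed Dusp10 most closely of the 7. Its Pearson r was 0.59 (permutation p = 0.0253, two-sided) and its Spearman rho 0.53 (permutation p = 0.0455), but the adjusted p over 19397 probes in limma was 0.271. Within the cHF+F+ROSI mice r was 0.76 and within the cHF+ROSI mice 0.36. The relation rested on few animals: without the 2 mice farthest from the median of Dusp10, cHF+F+ROSI replicates 2 and 3, r was 0.33 (permutation p = 0.281), and without replicate 2 alone it was also 0.33 (permutation p = 0.253).

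Dusp8 had an r of 0.51 (permutation p = 0.0625) and a rho of 0.42 (permutation p = 0.123), with an adjusted p of 0.340 in limma, and without the 2 farthest mice r was 0.12. For Dusp16 r was 0.28 (permutation p = 0.283) and rho -0.018 (permutation p = 0.983), and without those mice r was -0.041. Dusp7 went the other way with an r of -0.23 (permutation p = 0.410) and a rho of -0.36 (permutation p = 0.211), and r was -0.29 without those mice. Dusp6, Dusp3 and Dusp1 had an r of -0.063, -0.010 and 0.0015 (permutation p = 0.835, 0.968 and 0.996) and a rho of 0.11, -0.10 and -0.015 (permutation p = 0.683, 0.772 and 0.940), and without those mice r was 0.12, 0.11 and 0.24. Adjusted p in limma was at least 0.271 for all 7. Over the 28 pairs among the 8 genes r went from -0.46 to 0.59 with a median of -0.0043.

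**Figure D4:**
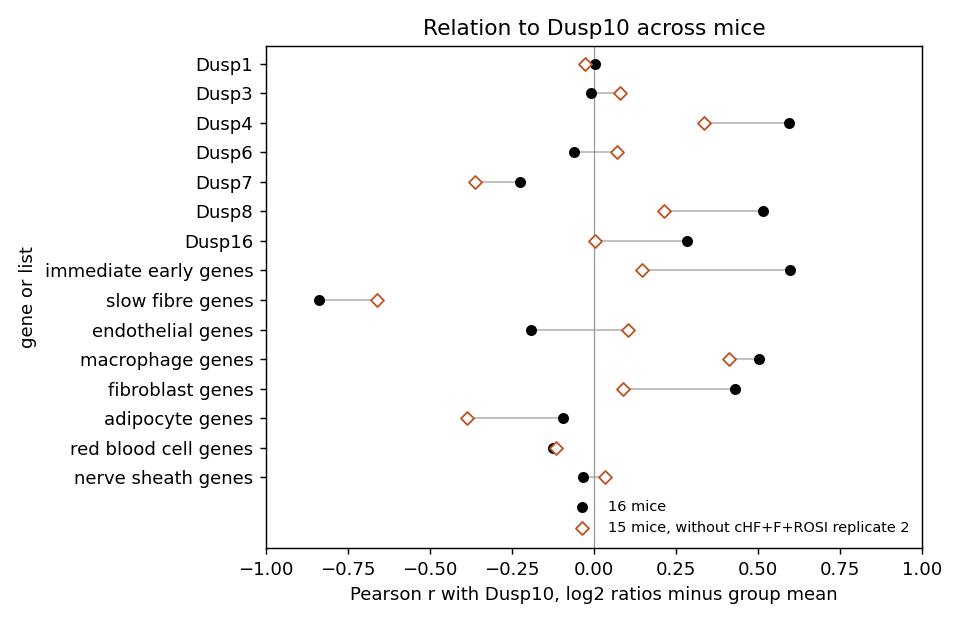
Pearson r with Dusp10 across mice after subtraction of group means (horizontal axis) for the 7 other phosphatases and the means of 8 marker lists (vertical axis), with 16 mice (black points) and without cHF+F+ROSI replicate 2 (open diamonds). The slow fibre genes have the most negative r, -0.84 and -0.66, and the values of Dusp4, Dusp8 and the immediate early genes are nearer 0 without that mouse.

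The mean of 9 slow fibre genes opposed Dusp10 more than any of the 8 marker lists followed it. The r was -0.84 (permutation p = 0.00057, adjusted p over the 8 lists = 0.00456) and rho -0.73 (permutation p = 0.0034). It was -0.90 within the cHF+F+ROSI mice (exact permutation p = 0.0165) and -0.74 within the cHF+ROSI mice (exact permutation p = 0.0346). Without cHF+F+ROSI replicate 2 r was -0.66 (permutation p = 0.0118, adjusted p over the 8 lists = 0.0945), and without replicates 2 and 3 it was -0.61 (permutation p = 0.0413). With the slide as a block it was -0.82 (permutation p = 0.00035). Mice with more Dusp10 had lower slow fibre genes in both groups, and the relation lost its adjusted call without 1 animal.

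Single slow fibre genes showed how far this went. Myh7 ranged from -2.16 to 1.32 in cHF+ROSI mice and from -4.06 to 0.67 in cHF+F+ROSI mice, and its r with Dusp10 was -0.84 (adjusted p in limma = 0.0244). Among the others, the slow troponin genes Tnnt1, Tnni1 and Tnnc1 had an r of -0.83, -0.80 and -0.79, the calcium pump gene Atp2a2 one of -0.79, and Casq2 and Myl2 one of -0.74 each. Myl3 (-0.073) and the probe used for Tpm3 (0.35) had other values, although another probe of Tpm3 had a slope of -1.77 on Dusp10 (adjusted p in limma = 0.0279). Without cHF+F+ROSI replicate 2 the r of Myh7, Tnnt1, Tnni1, Tnnc1 and Atp2a2 lay between -0.68 and -0.60, that of Casq2 was -0.55, that of Myl2 -0.34, that of the Tpm3 probe -0.11 and that of Myl3 0.42, and the adjusted p in limma was 0.9996 for each of the 9 genes. The slow fibre genes were not themselves called between the diets, with a median log2 fold change of -0.41. With their mean as a covariate, an alternative added after seeing the data, the log2 fold change of Dusp10 was -0.89 with an SE of 0.11.

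**Figure D5:**
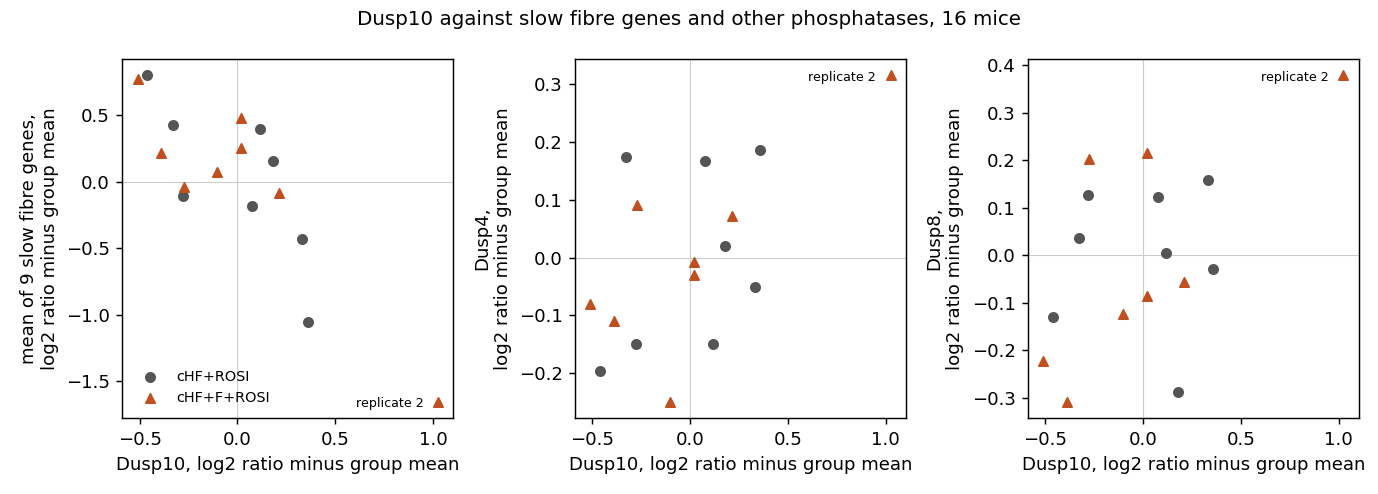
Group-centred log2 ratios of Dusp10 (horizontal axes) against the mean of 9 slow fibre genes (left), Dusp4 (middle) and Dusp8 (right) on the vertical axes, 1 point per mouse, with cHF+ROSI mice as grey circles and cHF+F+ROSI mice as orange triangles. The slow fibre mean falls as Dusp10 rises (r = -0.84), and replicate 2 of the cHF+F+ROSI mice lies at the end of each panel.

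The 15 immediate early genes, which are switched on within minutes by stimulation and stress, had an r of 0.60 with Dusp10 (permutation p = 0.0433, adjusted p over the 8 lists = 0.116) and a rho of 0.18 (permutation p = 0.494), and without the 2 farthest mice r was 0.24. Jun and Klf4, 2 of the 15, had lower ratios in cHF+F+ROSI mice, with log2 fold changes of -0.34 and -0.59. Both had an unadjusted limma p of up to 0.05, as did 4.98% of all probes on the lower side, and neither passed after adjustment. Egr1 and Fos were at 2.32 and 2.37 in cHF+F+ROSI replicate 2, and their highest values in the other 15 mice were 1.71 and 2.64. The macrophage genes had an r of 0.50 (permutation p = 0.0407, adjusted p over the 8 lists = 0.116) and a rho of 0.56 (permutation p = 0.0310), with 0.42 left without the 2 farthest mice. For the fibroblast genes r was 0.43 (permutation p = 0.125, adjusted p = 0.251) and rho 0.29 (permutation p = 0.317), with an r of 0.095 without the 2 farthest mice. For the endothelial, adipocyte, red blood cell and nerve sheath genes r lay between -0.19 and -0.034 (permutation p at least 0.554) and rho between -0.19 and -0.044 (permutation p at least 0.396). The median Cy5 signal of an array over its background had an r of -0.19 with Dusp10 (permutation p = 0.441) and a rho of -0.068 (permutation p = 0.709).

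Over 11444 named genes with 1 probe each, the 6 that followed Dusp10 most closely across the 16 mice were Angpt2, a ligand of the endothelial receptor Tek (r = 0.89), 1700056E22Rik (0.88), the mitotic kinase gene Aurka (0.87), the mast cell protease gene Mcpt4 (0.82), Fbxl16 (0.82) and Bcl2l11, which encodes a protein that promotes apoptosis (0.82). Those that opposed it most were Pfkfb1, which sets the level of an activator of glycolysis (-0.89), Dgat2, the last enzyme of triglyceride synthesis (-0.87), Myh7 (-0.84) and Timp4, an inhibitor of metalloproteinases (-0.84). Of these named genes Fbxl16 and Bcl2l11 (adjusted p in limma = 0.0630 each) and Pfkfb1 (0.0912) did not pass an adjusted p of 0.05. Of the 20 genes most opposed to Dusp10, 5 were slow fibre genes, and the closest of the 7 other phosphatases, Dusp4, ranked 285 among those that followed it. At an adjusted p of up to 0.05 in limma 19 probes, 0.098% of those tested, were related to Dusp10, 14 of them negatively. Without cHF+F+ROSI replicate 2 none was. Of the 19397 probes, 629 then passed an unadjusted p of up to 0.05 in limma, fewer than that threshold gives with no relation. With all mice 2565 did. Without that mouse the r of the 6 genes that followed Dusp10 lay between 0.60 and 0.79 and that of the 4 that opposed it between -0.74 and -0.66. Angpt2 had an r of 0.79 then (adjusted p in limma = 0.9996), and within the groups of 0.88 and 0.89. These genes were picked by their r over the same mice, so such values are no separate support for a relation.

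Beyond the 8 genes, 10 other phosphatases of MAP kinases were listed and 5 were measured. At an unadjusted limma p of up to 0.05, which 10.4% of all probes passed, none was higher. Ptprr, a receptor-type tyrosine phosphatase that binds ERK and p38, was lower. Ptprr ranged from -0.18 to 0.29 (median 0.058) in cHF+ROSI mice and from -0.42 to 0.024 (median -0.26) in cHF+F+ROSI mice, a log2 fold change of -0.31 (SE 0.077, adjusted p in limma = 0.160). Dusp2, a nuclear phosphatase best known from immune cells, was chosen after its values were seen: its log2 fold change was -0.12 (SE 0.14), its r with Dusp10 was 0.79 (adjusted p in limma = 0.0630) or, without cHF+F+ROSI replicate 2, 0.56, and its highest value, 0.97, was in that mouse. Of 14 small dual specificity phosphatases 12 were measured, with Dusp19 higher (log2 fold change 0.14) and Dusp26 lower (-0.26) at the same unadjusted threshold. Their adjusted p in limma was 0.343 and 0.455.

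The kinases that these phosphatases act on, and those upstream, held genes on either side at the unadjusted threshold in limma and none past the adjusted one. Of 31 genes of the JNK and p38 kinases 26 were measured, and 2 were higher and 3 lower at the unadjusted threshold, which 10.4% of all probes passed. Map2k6, the kinase that activates p38, ranged from -0.16 to 0.28 in cHF+ROSI mice and from 0.11 to 0.43 in cHF+F+ROSI mice, a log2 fold change of 0.21 (SE 0.064, adjusted p in limma = 0.221), and Map3k6 was higher by 0.34. The mixed lineage kinase genes Map3k10 and Map3k11 had log2 fold changes of -0.39 and -0.22, and Gadd45g, a stress-induced activator of this cascade, one of -0.50 (SE 0.17, adjusted p in limma = 0.310). Map3k10 lay between -0.38 and 0.11 in cHF+ROSI mice and between -1.01 and -0.28 in cHF+F+ROSI mice.

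All 21 genes of the ERK cascade were measured, and 2 were higher and 1 lower, against the same 10.4% of all probes. Mapk3, which encodes ERK1, had a log2 fold change of -0.13, and Map2k1 (MEK1) and Braf, which lie upstream of it, had 0.17 and 0.12, each at the unadjusted threshold. Of 21 substrates of MAP kinases 20 were measured, and 2 were higher and 1 lower at that threshold, which 10.4% of all probes passed. The kinase gene Rps6ka1 and the muscle transcription factor gene Mef2a were higher by 0.12 and 0.13 (adjusted p in limma = 0.369 and 0.478). Elk3, an ETS factor, was lower (log2 fold change -0.29, SE 0.076, adjusted p in limma = 0.185). Among 11 genes known as feedback targets of ERK, 8 were measured. Only 1 of them passed the unadjusted threshold, against 10.4% of all probes. This was Etv4, which was lower (log2 fold change -0.12, adjusted p in limma = 0.424).

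In all, 92 of the 108 listed genes of the pathway were measured. With an unadjusted limma p of up to 0.05 15 were called, 8 lower and 7 higher, or 16.3% against 10.4% of all probes (4.98% lower and 5.38% higher), and by the methods' t-test 13. None passed an adjusted p of up to 0.05, which 0.0773% of all probes did. In the Cy5 channel alone, 37.5% of all probes called at the unadjusted threshold were lower, against 48.1% in the ratios. The median log2 fold change of the 92 genes was -0.019, beside 0.0015 for all probes.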

How the data were processed

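Spot intensities of 16 two-color Agilent arrays were deposited by the authors as quantified by Feature Extraction, with version 10.5.1.1 in the file headers and 10.5.5.1 in the submitters' processing notes, with scans at different laser powers joined. The authors also deposited a table of normalized log2 values, used as an alternative. Coordinates of probes are those of the files (mm8), whose annotation was not used here.

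Local backgrounds above 2 times the array's median (0 to 179 of 45018 spots per array and channel) were set to that median, because a few very high ones made the correction narrow the log ratios of 3 arrays (SD 0.142 to 0.252, against 0.352 to 0.470 on the others). The median signals were then corrected by normexp with an offset of 50, control spots were left out, weak probes (mean signal under 2 times background in either channel) were removed, outlier spots were dropped from their array and each array's ratios were normalized by loess. Values of repeated spots were averaged per probe. The offset and loess make fold changes of weak probes smaller. Groups were compared in R 4.3.3 with limma 3.58.1 (lmFit, eBayes) and p-values adjusted by Benjamini-Hochberg over 19398 probes, and relations across mice were tested with 100000 permutations within groups or, within 1 group, over all pairings. The relation to Dusp10 was also fitted by limma beside the group. The chain was tried on these same arrays with shuffled group labels and a known change added to some probes. No arrays held identical ratios. A gene was represented by its brightest probe that passed.

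The 8 genes and all lists were chosen with earlier results of these data known. Named were the 8 genes, list genes at an unadjusted p of up to 0.05 (at most 8 per list), the 6 genes that followed and the 4 that opposed Dusp10 most, Myh7, Fos and Egr1. The groups came from the sample titles. Whether numbers shared by replicates of the groups pair the mice is not known, and the main fit did not use them. Alternatives covered background, normalization, filters, reference channel, the authors' table, slide and replicate blocks, array weights, the methods' t-test and each mouse left out. The slow fibre mean as a covariate was added after seeing the data.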

Additional observations from a re-analysis of the deposited data

Results flagged for a closer look

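Of 44 groups of 8 values examined, 8 held a mouse whose gap to its nearest neighbour was large against the range of its group. Chance gives about 1 in 20 for independent groups. These were not independent: several flags fell on cHF+F+ROSI replicate 2, and Myh7 is part of the slow fibre mean.

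In Dusp10, cHF+F+ROSI replicate 2 was at 0.80, far above the other 7 mice of its group. The same mouse had the lowest mean of the slow fibre genes, -2.12, the lowest Myh7, -4.06, and the highest mean of the immediate early genes, 0.99, in its group.

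Among the cHF+ROSI mice Dusp7 was lowest in replicate 8, at -1.37, a mouse of slide 4, and cHF+F+ROSI replicate 1 of that slide was at -1.72. In Dusp16, cHF+ROSI replicate 1 was highest at 0.16.

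Among the marker lists, the macrophage genes were highest in cHF+ROSI replicate 4 (0.50), and the red blood cell genes in cHF+F+ROSI replicate 6 (0.94).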

How the results depend on the processing

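The log2 fold change of Dusp10 lay between -0.89 and -0.67 over 13 settings and between -0.87 and -0.65 with each mouse left out. The -0.89 came from the slow fibre mean as a covariate, which was added after seeing the data and is no processing step. The next lowest was -0.78, with array quality weights. Of the other 7 phosphatases, 4 or 5 were lower over the same settings, and 4 to 6 with a mouse left out. Dusp4 and Dusp7 changed sign within these ranges.

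The count of probes past an adjusted p of up to 0.05 between the diets, 15, was 9 with median centring, 8 in the Cy5 channel alone, 6 with the replicate block, 146 with array quality weights, 7 by the methods' t-test and 3 with normexp on local backgrounds as given, and 5 to 24 with a mouse left out. At an unadjusted p it was 3221 without the filter on signal, 1990 by the methods' t-test and 1789 to 2220 with a mouse left out, beside 2010. The count of pathway genes at an unadjusted p was 12 to 19 over the settings and 11 to 21 with a mouse left out.

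The relation of Dusp10 to the slow fibre genes was -0.41 (permutation p = 0.111) without subtraction of group means and stayed past an unadjusted permutation p of 0.05 under the other 12 settings and with each mouse left out (-0.87 to -0.66), while its p adjusted over the 8 lists was 0.0945 without cHF+F+ROSI replicate 2. Marker lists past an adjusted p numbered 1, but 2 with the slide block, 0 without subtraction of group means, 0 without the 2 farthest mice and 0 to 2 with a mouse left out. Of the 7 other phosphatases 1 passed an unadjusted permutation p, but 2 in Cy5 alone and without subtraction of group means, 0 with scale normalization, with the replicate block, without the 2 farthest mice or with backgrounds as given, and 0 to 2 with a mouse left out. For Dusp1 the sign of r turned without background correction (-0.00075), with median centring (-0.0015), without the filter (-0.0033), with the slide block (-0.40), with the replicate block (-0.068), in the authors' table (-0.0031) and with backgrounds as given (-0.026). For Dusp3 it turned with scale normalization (0.21), in Cy5 alone (0.18), with the replicate block (0.33), without subtraction of group means (0.25) and without the 2 farthest mice (0.11). For Dusp6 it turned with scale normalization (0.038), in Cy5 alone (0.078) and without the 2 farthest mice (0.12). For Dusp8 it turned in Cy5 alone (-0.16) and with the replicate block (-0.083), and for Dusp16 without the 2 farthest mice (-0.041). With a mouse left out r was -0.12 to 0.25 for Dusp1, -0.13 to 0.11 for Dusp3 and -0.19 to 0.071 for Dusp6.

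Probes related to Dusp10 at an adjusted p numbered 19, but 12 in the processed signals, 725 in Cy5 alone, 11 in the authors' table, 5 without subtraction of group means, 0 with scale normalization, with the slide block, with the replicate block and without the 2 farthest mice, and 0 to 62 with a mouse left out. The cause was not tested for any of these changes.

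Same-numbered mice of the groups had an r of -0.26 to 0.34 between their deviations over all probes, and 0 of 8 matched best with its own number. This cannot decide whether the numbers pair the mice, because paired mice need not be most alike over all probes. Under the replicate block the log2 fold change of Dusp10 was -0.73 (SE 0.114), its r with the slow fibre genes was -0.96 and that with Dusp4 0.31.

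The weak Cy3 signal limits ratios of genes near background, and 8 mice per group limit the precision of every value.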
